A study of Mus musculus with 8 samples.

Results

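Reactive astrocyte genes are genes whose messenger RNA is known to increase in astrocytes after injury or inflammation of the brain. Here 36 such genes were chosen by name, with earlier results of these data known. Each was followed through the microarray probe sets annotated to it alone. Of the 36 genes, 35 were measured, with 76 probe sets in all, out of 18194 genes on the array, and where a gene had several probe sets, the brightest on average over the 8 arrays stands for it. Ggta1, a galactosyltransferase, had no probe set paired with it alone here and is not analysed further.

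The hypothalamus of 4 Nestin-Pex5-/- mice was set against that of 4 wild type mice, all at 10 weeks of age and untreated, with 1 Affymetrix mouse genome array for each mouse. Nestin-Pex5-/- mice carry a Pex5 gene flanked by loxP sites and a Cre recombinase under the Nestin promoter, so that the import receptor for peroxisomal matrix proteins is lost from neurons, astrocytes, oligodendrocytes and their precursors, while microglia, which have another origin, should keep it. The colony had a Swiss Webster background. The arrays are called here by the numbers in their labels, 7 to 10 for Nestin-Pex5-/- and 1 to 4 for wild type, and these numbers pair no mice.

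All values are log2 expression values that the authors made with RMA, a method that removes background, gives all arrays a common distribution and condenses the probes of each set into 1 value. A difference of 1 between genotypes is therefore a doubling. A gene is called higher or lower where its Benjamini-Hochberg adjusted p over all 18194 genes was under 0.05 in limma, a linear model for arrays that shares the estimate of the spread across genes.

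Astrocytes answer damage by enlarging their processes and by filling them with intermediate filaments, of which glial fibrillary acidic protein is the best known. Much of this response runs through cytokines of the interleukin 6 family: they bind receptors that share the subunit gp130, the kinases at these receptors phosphorylate STAT3, and STAT3 enters the nucleus and binds the palindrome TTCNNNGAA in target promoters. Reactive astrocytes also secrete protease inhibitors, acute-phase proteins and matrix components. In the hypothalamus, astrocytes and the related tanycytes border the ventricle and the median eminence.

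The labelled tissue was checked against markers. The 10 neuronal markers averaged 12.35 in Nestin-Pex5-/- and 12.40 in wild type, and the 23 markers of astrocyte identity averaged 11.13 in Nestin-Pex5-/- and 11.09 in wild type. The 15 measured genes of hypothalamic peptides and regulators averaged 8.94 in Nestin-Pex5-/- and 9.14 in wild type. Markers of neutrophils and monocytes, T cells and red blood cells averaged between 5.18 and 5.76 in every array, and none of these genes was called. The main Pex5 probe set gave 8.76, 8.68, 8.58 and 8.66 in Nestin-Pex5-/- and 8.62, 8.68, 8.63 and 8.70 in wild type (log2 fold change 0.011, adjusted p = 0.946), but it is not known whether it lies in the deleted part, so it checks nothing about the genotype. Wild type array 4 stood apart from the other wild type arrays on the second principal component, at 29.1 against -9.98 to -5.07. The same array was low in choroid plexus markers: Ttr, the transthyretin gene of that tissue, measured 14.30, 14.02, 14.47 and 14.28 in Nestin-Pex5-/-, against 14.59, 14.47, 14.48 and 10.51 in wild type. Nestin-Pex5-/- arrays 7 and 8 stood apart from arrays 9 and 10 on the third, at 14.5 and 10.6 against -12.1 and -12.0.

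Of the 35 reactive astrocyte genes, 20 were higher in Nestin-Pex5-/- hypothalamus, 1 was lower and 14 did not pass the test. Over all genes, 3.98% were higher and 0.791% lower by the same rule, whereas 57.1% of the measured reactive astrocyte genes were higher. The genes were chosen with earlier results of these data known, and the part of that choice in this contrast was not tested. The median log2 fold change of the 35 genes was 0.75, beside -0.033 for all genes. At least a doubling was reached by 13 of the 20, among 212 such genes on the whole array (1.17%), and 6 of them, Gfap, Timp1, Serpina3n, Lcn2, Aspg and Osmr, changed at least 4-fold, among 61 on the whole array. In 21 genes, the 20 and Hspb1, the lowest Nestin-Pex5-/- array lay above the highest wild type array (6.63% of all genes), and in 1 gene, Fbln5, the highest Nestin-Pex5-/- array lay below the lowest wild type array (4.51% of all genes). Whether there were more astrocytes or more RNA per astrocyte cannot be told apart in tissue RNA.

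**Figure D1:**
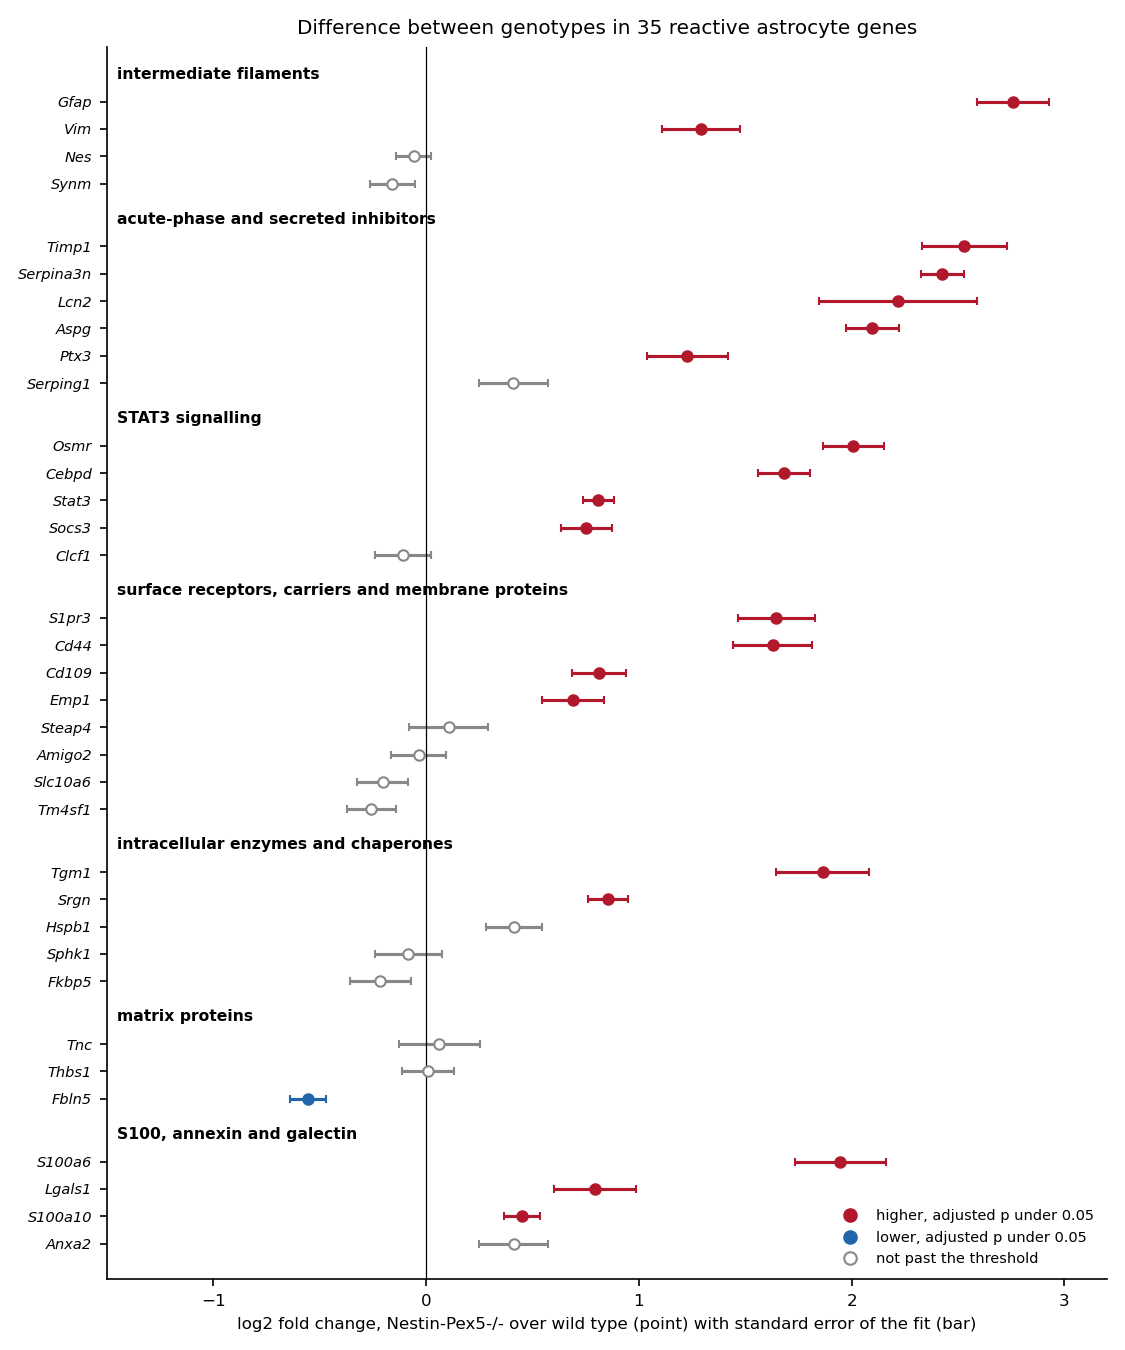
Log2 fold change (Nestin-Pex5-/- over wild type) of the 35 measured reactive astrocyte genes, grouped broadly by what their products do, with the standard error of the limma fit as a bar (n = 4 arrays for each genotype). Srgn, a proteoglycan, is placed with the enzymes and chaperones, and Aspg, an asparaginase, with the acute-phase and secreted proteins. Filled red points passed the test as higher (20 genes), the filled blue point as lower (Fbln5), and open points did not pass; Gfap lies furthest to the right at 2.76.

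Since STAT3 binds TTCNNNGAA, the promoters of the members were searched for these letters, to show which carry them close to the start of the gene. RefSeq promoters of the mouse build GRCm38.p6, from 250 bases before to 50 after each start, were given for 29 of the 36 genes. The letters TTCNNNGAA, the same on both strands, were found in 6 of the 29 (20.7%) and in 9.55% of the 27025 genes in the promoter table. Of the 16 genes that were higher and had a promoter in the table, 4 held a match, namely Gfap, Socs3, Tgm1 and Emp1, and the other 2 matches were in Steap4 and Sphk1, which did not pass the test. The stretches around the matches are given 5' to 3' on the strand of the gene, with the matches in capitals, the higher genes first:
Gfap, chr11:102897194-102897222, minus strand: aggctattcaatgggggtgcTTCCAGGAA
Socs3, chr11:117969492-117969540, minus strand: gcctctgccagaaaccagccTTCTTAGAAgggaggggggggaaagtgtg
Tgm1, chr14:55713528-55713685, minus strand: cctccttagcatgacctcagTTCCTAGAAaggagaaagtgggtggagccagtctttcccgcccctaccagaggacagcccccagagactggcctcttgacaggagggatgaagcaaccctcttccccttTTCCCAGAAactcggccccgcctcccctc
Emp1, chr6:135362791-135362930, plus strand: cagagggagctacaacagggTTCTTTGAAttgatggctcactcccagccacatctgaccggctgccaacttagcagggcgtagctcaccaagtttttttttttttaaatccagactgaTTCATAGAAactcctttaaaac
Steap4, chr5:7960336-7960384, plus strand: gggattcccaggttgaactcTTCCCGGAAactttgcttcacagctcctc
Sphk1, chr11:116531776-116531824, plus strand: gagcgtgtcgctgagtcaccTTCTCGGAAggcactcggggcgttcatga

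The first base of the match lies 2 bases before the annotated start in Gfap, so that the match spans it, and 154 bases before the start in Socs3. In Tgm1 the matches begin 173 and 64 bases before the start, in Emp1 120 and 22, and in Steap4 116. Sphk1 has 2 annotated starts in the table and the match begins 41 or 115 bases before them. The letters TGANTCA include the AP-1 site TGA(C/G)TCA but allow any middle base. They were found in 4 of the 29 genes (13.8%, beside 8.97% of all genes), Emp1, Osmr, Anxa2 and Sphk1. The Osmr match and the Emp1 match that begins 25 bases before the start read TGATTCA, which is outside the AP-1 site. That Emp1 match overlaps the nearer STAT match. The letters TTGCNNCAA, read on both strands, were found in 1 of the 29, Emp1 (3.45%, beside 2.38% of all genes). These letters are longer than the palindrome of C/EBP factors and cannot match it, so C/EBP sites were not tested. A match of letters is a description of the sequence and does not show that a factor binds there.

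Of the 4 intermediate filament genes, Gfap and Vim were higher and Nes and Synm did not pass the test. Gfap, the filament protein of astrocytes, measured 12.91, 13.09, 13.33 and 13.37 in Nestin-Pex5-/- arrays 7 to 10, against 10.50, 10.22, 10.07 and 10.87 in wild type arrays 1 to 4. All Nestin-Pex5-/- arrays were above all wild type arrays, and the means were 13.17 ± 0.21 in Nestin-Pex5-/- and 10.42 ± 0.35 in wild type (SD, n = 4 each), a difference of 2.76 (SE 0.17, 6.76-fold, adjusted p = 8.40e-06). By log2 fold change Gfap ranked 20 of all genes, and its other probe sets gave 7.96-fold and 7.45-fold. Vimentin, which co-assembles with Gfap in reactive astrocytes and is also a filament of microglia, endothelium and fibroblasts, measured 10.66, 10.71, 11.38 and 11.30 in Nestin-Pex5-/-, against 9.85, 9.57, 9.48 and 9.98 in wild type. It was higher without overlap of the arrays (2.45-fold, adjusted p = 0.00269), and arrays 9 and 10 exceeded arrays 7 and 8. The main Vim probe set is of a design class that can hybridize with related transcripts. The other Vim probe sets gave 2.51-fold and 2.67-fold and were called.

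Nestin is a filament of neural progenitors and of some reactive astrocytes, and its promoter drove Cre in these mice. Nes measured 7.90, 7.77, 7.91 and 7.87 in Nestin-Pex5-/-, against 7.71, 7.93, 7.98 and 8.07 in wild type, and the genotypes overlapped (0.961-fold, adjusted p = 0.767). Synemin, which joins vimentin-type filaments, measured 9.05, 9.39, 9.06 and 8.94 in Nestin-Pex5-/-, against 9.37, 9.35, 9.08 and 9.26 in wild type, again with overlap (0.897-fold, adjusted p = 0.498). The other probe sets of Nes (0.885-fold and 1.06-fold) and of Synm (0.940-fold) did not pass the test either.

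**Figure D2:**
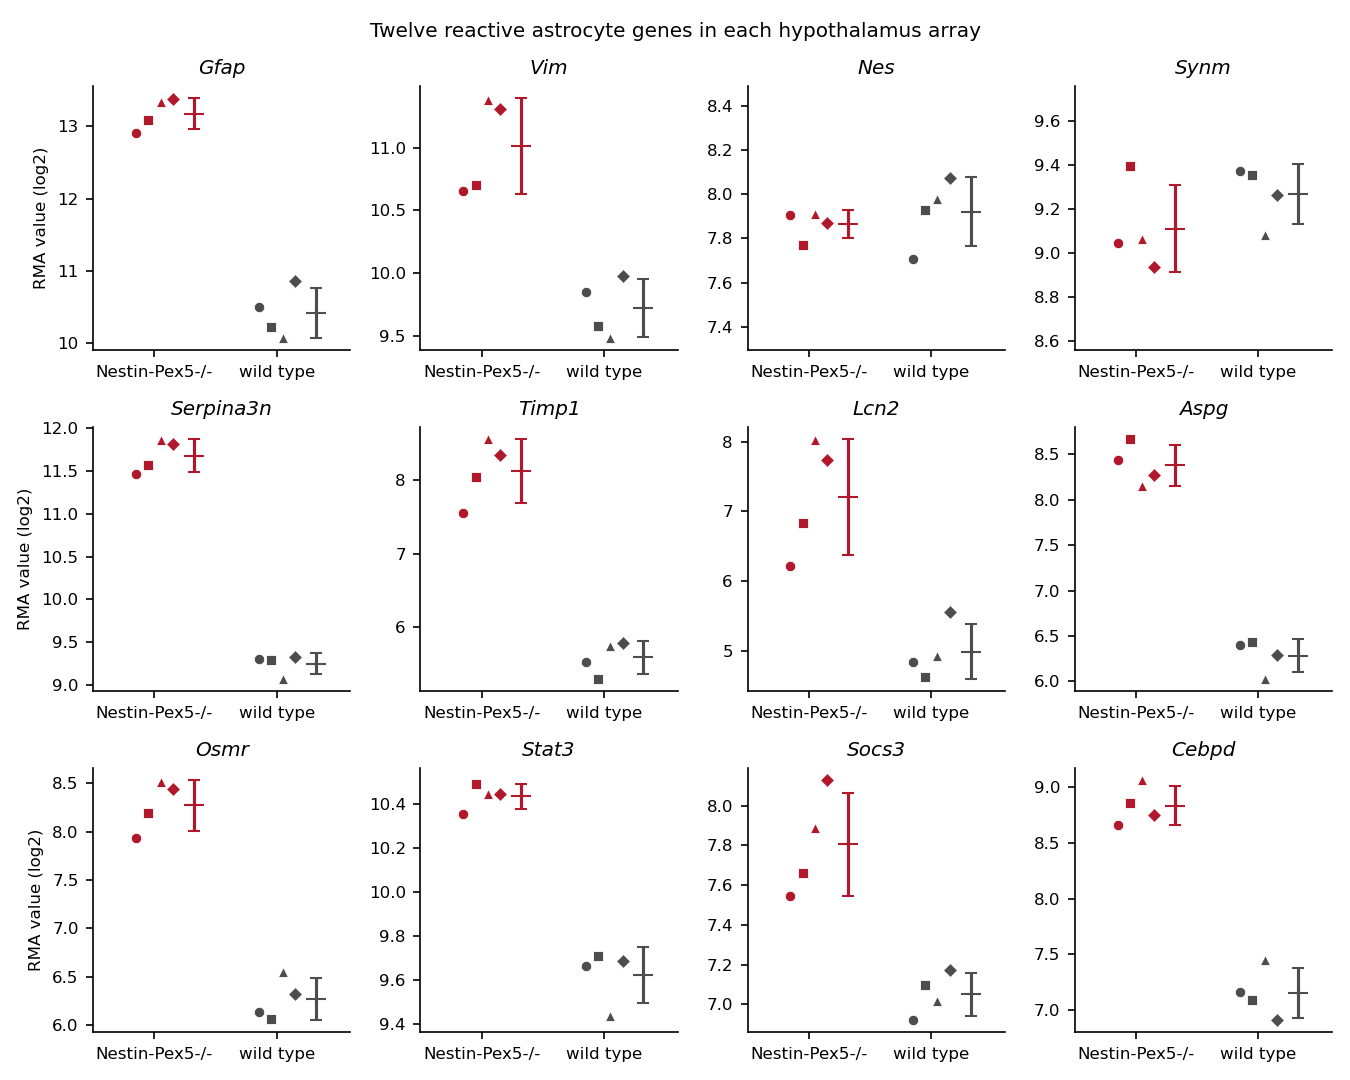
RMA log2 value of 12 of the reactive astrocyte genes in each array, Nestin-Pex5-/- in red (arrays 7 to 10 in order) left of wild type in grey (arrays 1 to 4 in order), with the mean and SD as a bar beside the points; shapes mark the order within a genotype and pair no mice, and each panel has its own axis. In 10 of the 12 panels the genotypes do not overlap, and in Nes and Synm they do.

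The group of acute-phase and secreted proteins, in which the enzyme Aspg was also placed, had the highest median difference among the groups of members, 2.16. Of its 6 genes, 5 were higher. Serpina3n, a secreted serine protease inhibitor and one of the most widely used markers of reactive astrocytes, measured 11.46, 11.57, 11.87 and 11.82 in Nestin-Pex5-/-, against 9.31, 9.30, 9.07 and 9.33 in wild type. The arrays of a genotype lay close together, so that Serpina3n had the lowest p among the 35 genes (log2 fold change 2.43, SE 0.10, 5.38-fold, adjusted p = 8.41e-07). Timp1, the tissue inhibitor of matrix metalloproteinases, measured 7.56, 8.04, 8.55 and 8.34 in Nestin-Pex5-/-, against 5.53, 5.30, 5.75 and 5.79 in wild type. It was 5.77-fold higher (adjusted p = 4.68e-05), with wild type values below the array medians of 6.70 to 6.84. Aspg, an asparaginase, measured 8.44, 8.67, 8.15 and 8.27 in Nestin-Pex5-/-, against 6.40, 6.43, 6.02 and 6.29 in wild type (4.28-fold, adjusted p = 6.80e-06). It was the gene among the 20 in which arrays 7 and 8 both exceeded arrays 9 and 10.

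Lipocalin 2, an iron siderophore binding protein secreted by reactive astrocytes and by neutrophils, varied most among the mutants. Lcn2 measured 6.22, 6.83, 8.03 and 7.74 in Nestin-Pex5-/-, against 4.84, 4.63, 4.93 and 5.55 in wild type, with an SD of 0.83 in Nestin-Pex5-/- and 0.40 in wild type. The lowest mutant was still above the highest wild type array, and the difference was 2.22 (SE 0.37, 4.66-fold, adjusted p = 0.00707). Pentraxin 3, a soluble pattern recognition protein, measured 5.48, 5.96, 6.37 and 6.49 in Nestin-Pex5-/-, against 4.81, 4.97, 4.80 and 4.82 in wild type (2.34-fold, adjusted p = 0.00468). Its second, dimmer probe set gave 0.946-fold and did not pass, so the call rests on 1 probe set. Serping1, the inhibitor of the complement component C1, differed by 0.41 and did not pass (adjusted p = 0.235), its arrays 7 and 8 (8.36 and 8.43) lying below wild type array 4 (8.59).

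Of the 5 genes of STAT3 signalling, 4 were higher. Osmr, the receptor subunit for oncostatin M, measured 7.93, 8.20, 8.51 and 8.44 in Nestin-Pex5-/-, against 6.13, 6.06, 6.54 and 6.32 in wild type. Its lowest mutant array exceeded its highest wild type array by more than 1 log2 unit (4.02-fold, adjusted p = 2.39e-05), a second probe set gave 2.36-fold and was called, and the remaining one gave 1.01-fold. Stat3 itself, the transcription factor, measured 10.36, 10.49, 10.45 and 10.45 in Nestin-Pex5-/-, against 9.66, 9.71, 9.44 and 9.69 in wild type. The change was of moderate size but the mutants differed little from each other (SD 0.056), and the test gave 1.75-fold, SE 0.072 on the log2 scale and adjusted p = 1.11e-04. Of its other probe sets, one gave 1.76-fold and was called, while those at 1.44-fold and 1.02-fold were not.

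Socs3, the feedback inhibitor that STAT3 induces, measured 7.54, 7.66, 7.89 and 8.13 in Nestin-Pex5-/-, against 6.92, 7.10, 7.02 and 7.17 in wild type (1.69-fold, adjusted p = 0.00556). Its other probe sets, both of a design class that can hybridize with related transcripts, gave 4.21-fold and 3.93-fold, so the direction held over its probe sets while the size did not. Cebpd, a C/EBP transcription factor of the acute-phase response, measured 8.66, 8.86, 9.07 and 8.75 in Nestin-Pex5-/-, against 7.16, 7.09, 7.45 and 6.90 in wild type (3.21-fold, adjusted p = 2.79e-05), and its second probe set gave 1.23-fold and was not called. Clcf1, a cytokine of the interleukin 6 family that acts through the receptor for ciliary neurotrophic factor, gave 0.927-fold (adjusted p = 0.720), with overlapping arrays.

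Around these members the wider interleukin 6 family and STAT3 pathway was examined in a list of 28 genes, of which 24 were measured. It holds the 5 members of STAT3 signalling given above. In this list 7 were higher and none lower, beside 3.98% and 0.791% of all genes, and the median log2 fold change was 0.087. The arrays did not overlap in 9 genes that were higher, the 7 called ones with Il6 and Il6ra, beside 6.63% of all genes. They did not overlap either in 1 that was lower, Cntfr, beside 4.51% of all genes. Of the 7 called genes, Osmr, Stat3, Socs3 and Cebpd are the members given above. The others, Bcl3, Il6st and Cebpb, are not members, and the last 2 were named after their values were seen. Bcl3, a nuclear co-regulator of NF-kappaB that STAT3 also induces, gave 1.79-fold (adjusted p = 0.00165), and Il6st, which encodes gp130, gave 1.33-fold (adjusted p = 0.00446). Cebpb, a further C/EBP factor, gave 1.32-fold (adjusted p = 0.0251), and its call was lost when the arrays were scaled to Actb (adjusted p = 0.0642) and without Nestin-Pex5-/- array 8, 9 or 10 or wild type array 3 (adjusted p between 0.0583 and 0.0851). None of the measured cytokines passed. Il6 measured 3.62, 3.67, 3.72 and 3.69 in Nestin-Pex5-/-, against 3.33, 3.41, 3.58 and 3.56 in wild type, close to the lowest value of any probe set (2.91), and gave 1.15-fold without overlap (adjusted p = 0.152). Lif gave 0.936-fold (adjusted p = 0.535), Osm 1.06-fold (0.725), Il11 0.965-fold (0.715) and Ctf1 0.990-fold (0.961). Of the kinases, Jak1 gave 1.01-fold (adjusted p = 0.937), Jak2 1.01-fold (0.927) and Tyk2 1.07-fold (0.528). Among the receptors Il6ra (1.28-fold, adjusted p = 0.0776), Cntfr (0.825-fold, 0.0822) and Lifr (0.975-fold, 0.897) did not pass. The genes that passed thus encode receptor subunits, STAT3, its inhibitor and transcription regulators, and no gene of a ligand or kinase passed.

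Among 8 membrane proteins, 4 were higher, led by S1pr3 and Cd44. S1pr3, a G protein-coupled receptor for sphingosine 1-phosphate, measured 9.51, 9.59, 10.07 and 10.07 in Nestin-Pex5-/-, against 8.26, 8.31, 7.69 and 8.40 in wild type (3.13-fold, adjusted p = 4.99e-04), and both other probe sets were called, at 2.51-fold and 1.999-fold. Cd44, the hyaluronan receptor, which astrocytes and leukocytes carry, measured 8.18, 8.16, 8.58 and 8.51 in Nestin-Pex5-/-, against 6.78, 6.66, 6.26 and 7.21 in wild type (3.09-fold, adjusted p = 6.05e-04). Wild type array 3 had the lowest and wild type array 4 the highest value of their genotype in both genes, and both lay below all mutants. Of the other Cd44 probe sets, those at 2.97-fold and 2.66-fold were called and one at 0.904-fold was not.

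The other membrane proteins that passed changed less than 2-fold. Cd109, a surface protein that binds transforming growth factor beta, measured 6.88, 7.53, 7.24 and 6.99 in Nestin-Pex5-/-, against 6.37, 6.42, 6.33 and 6.26 in wild type (1.76-fold, adjusted p = 0.00470), with array 8 highest. Emp1, a tetraspan epithelial membrane protein, measured 7.07, 6.97, 7.43 and 7.27 in Nestin-Pex5-/-, against 6.51, 6.86, 6.19 and 6.40 in wild type (1.61-fold, adjusted p = 0.0254). The Emp1 genotypes were separated only narrowly, at 6.97 in the lowest mutant and 6.86 in the highest wild type array, and the call was lost without Nestin-Pex5-/- array 9 (adjusted p = 0.0772) or 10 (0.0845) or wild type array 1 (0.0669) or 3 (0.0595). It was lost also when its 2 probe sets were averaged (adjusted p = 0.251), since the dimmer one gave 0.860-fold.

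Steap4, a metalloreductase of the pan-reactive response, did not pass (1.08-fold, adjusted p = 0.813). Arrays 9 and 10 (6.60 and 6.48) were above and arrays 7 and 8 (6.01 and 5.81) within the wild type range of 5.77 to 6.35, and its dimmer probe set gave 1.69-fold without passing (adjusted p = 0.344). The carrier Slc10a6 (0.869-fold, adjusted p = 0.442) and the adhesion molecule Amigo2 (0.977-fold, adjusted p = 0.925) did not pass. Tm4sf1, a tetraspan protein best known from endothelium, gave 0.837-fold (adjusted p = 0.304), and it was called lower when wild type array 3, the lowest of its genotype, was left out (log2 fold change -0.38, adjusted p = 0.0132).

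Tgm1 and Srgn were higher among the 5 measured genes of the group of intracellular enzymes and chaperones, in which the proteoglycan gene Srgn was also placed. Transglutaminase 1, which cross-links proteins, was below the array medians in wild type: Tgm1 measured 6.41, 6.42, 7.48 and 7.10 in Nestin-Pex5-/-, against 5.05, 4.86, 5.03 and 5.01 in wild type. It was 3.64-fold higher (adjusted p = 7.17e-04), and the mutants fell into a lower pair, arrays 7 and 8, and a higher pair, arrays 9 and 10. Srgn encodes serglycin, a proteoglycan of secretory granules that leukocytes also make. It measured 9.85, 9.91, 10.18 and 9.92 in Nestin-Pex5-/-, against 9.08, 8.997, 9.05 and 9.31 in wild type (1.81-fold, adjusted p = 4.56e-04).

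Hspb1, the small heat shock protein Hsp25 of the mouse, measured 9.51, 9.89, 9.72 and 9.76 in Nestin-Pex5-/-, against 9.48, 9.40, 8.92 and 9.43 in wild type. The genotypes did not overlap, but the lowest mutant and the highest wild type array nearly met, and the test was not passed (1.33-fold, adjusted p = 0.129). Sphk1, the kinase that makes sphingosine 1-phosphate and so the ligand of S1pr3, gave 0.944-fold (adjusted p = 0.831). Fkbp5, a chaperone of steroid hormone receptors that glucocorticoids induce, gave 0.863-fold (adjusted p = 0.501).

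None of the 3 matrix genes was higher. Fbln5, an elastic fibre protein, was the only member that was lower: it measured 7.74, 7.76, 7.64 and 7.63 in Nestin-Pex5-/-, against 8.20, 8.08, 8.47 and 8.23 in wild type. Its arrays did not overlap (log2 fold change -0.55, SE 0.084, 0.681-fold, adjusted p = 0.00402). The second, dimmer probe set gave 1.04-fold, and with the probe sets averaged the call was lost (adjusted p = 0.0502). Tenascin C, an extracellular glycoprotein of glial scars, gave 1.04-fold (adjusted p = 0.899), with wild type array 4 highest at 7.79. Thrombospondin 1, an astrocyte-secreted protein that promotes synapse formation, gave 1.01-fold (adjusted p = 0.975).

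In the group of S100 proteins, annexin and galectin, 3 of 4 genes were higher. S100a6 measured 9.48, 9.42, 9.98 and 10.05 in Nestin-Pex5-/-, against 7.99, 7.89, 7.19 and 8.07 in wild type (3.86-fold, adjusted p = 4.58e-04). The separation was more than 1 log2 unit even though wild type array 3 was low. S100a10, the partner of annexin A2 at the membrane, measured 8.78, 8.81, 8.88 and 8.91 in Nestin-Pex5-/-, against 8.41, 8.22, 8.35 and 8.61 in wild type (1.37-fold, adjusted p = 0.0120), and the call was lost with its 3 probe sets averaged (adjusted p = 0.152). Anxa2 gave 1.33-fold and did not pass (adjusted p = 0.231).

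Lgals1, which encodes galectin 1, a lectin that binds galactosides, lay closest to the threshold. It measured 8.91, 8.997, 9.56 and 9.57 in Nestin-Pex5-/-, against 8.67, 8.74, 8.05 and 8.41 in wild type (1.73-fold, adjusted p = 0.0494). The call was lost in 7 of the 8 fits that left out 1 array, with adjusted p between 0.0598 and 0.144, and was kept without Nestin-Pex5-/- array 7 (adjusted p = 0.0348). It was lost also with the arrays quantile-normalized again (adjusted p = 0.0678) and with trend and robust settings (0.0663).

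**Figure D3:**
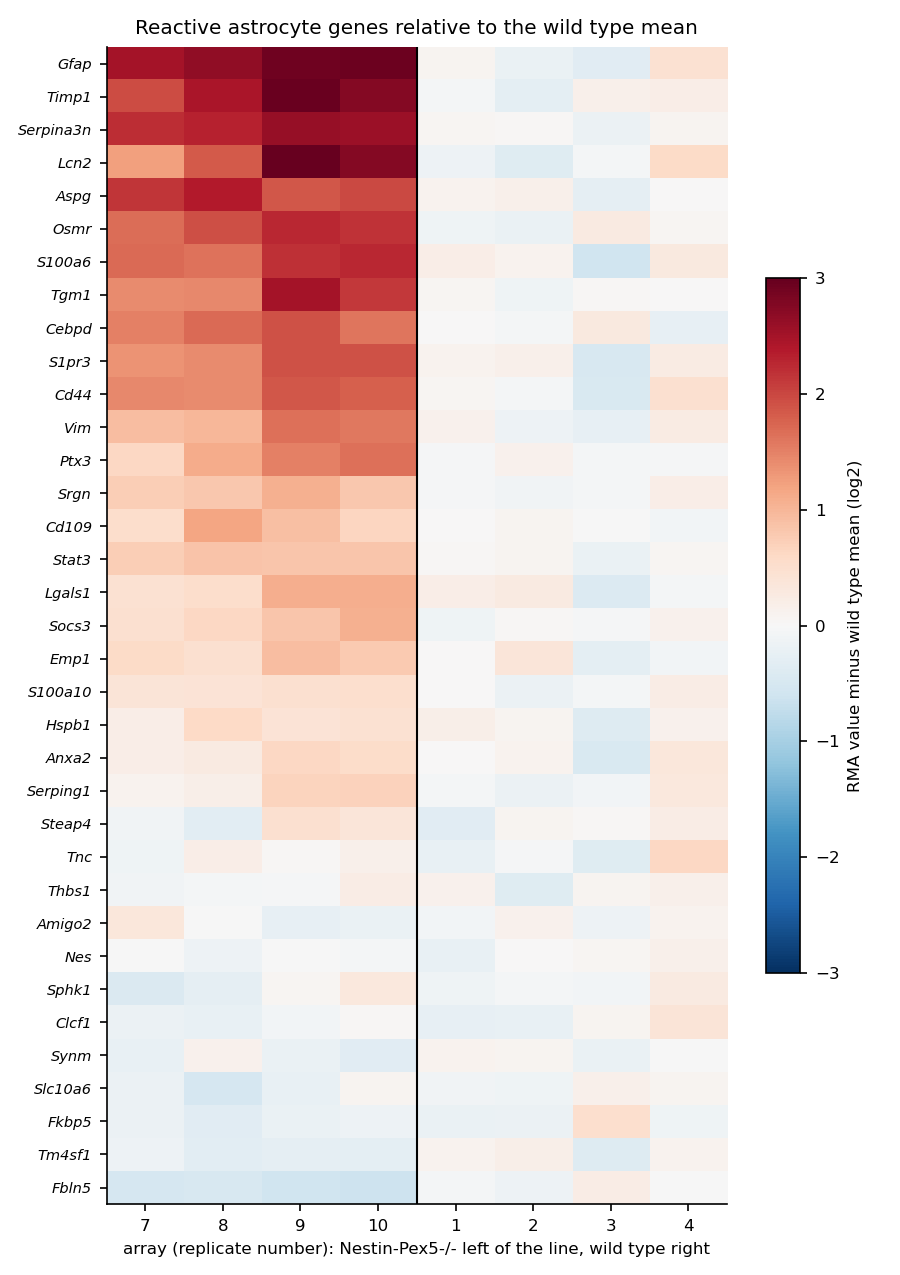
RMA log2 value minus the wild type mean of the gene, for each of the 35 reactive astrocyte genes (rows, from the highest to the lowest difference) in each array (columns, Nestin-Pex5-/- 7 to 10 left of the line and wild type 1 to 4 right of it); red is above and blue below the wild type mean, and the colours end at 3 and -3. From Gfap to S100a10 every mutant array is red, and arrays 9 and 10 are darker than 7 and 8 in most rows.

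Of the 35 genes, 26 had further probe sets, 41 in all, and these were tested among all 45101 probe sets, of which 2.32% were higher. For the 20 genes called higher there were 23 further probe sets, of which 13 were also higher, 10 did not pass and 19 had the same sign. For the 14 genes that did not pass, none of the 17 further probe sets passed. A probe set that Pald1 and Thbs1 share was left out of all counts.

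The mutants were not equally far from wild type. In 16 of the 20 higher genes arrays 7 and 8 both measured less than arrays 9 and 10 (80.0%), a pattern seen in 24.3% of all genes, while the opposite was seen in 30.9% of all genes. Array 7 was the lowest mutant in 16 of the 20 and array 9 the highest in 11, and in wild type array 3 was the lowest in 11 and array 4 the highest in 11. Over the 20 genes, the median deviation from the mean of the mutants was -0.26 in array 7, -0.11 in array 8, 0.24 in array 9 and 0.18 in array 10.

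Markers of other cells moved with these arrays in part. The 15 markers of meningeal fibroblasts, which also make vimentin, Timp1, S100a6 and galectin 1, averaged 7.01, 7.27, 8.28 and 8.25 in Nestin-Pex5-/- arrays 7 to 10, against 8.10, 8.04, 7.79 and 8.45 in wild type arrays 1 to 4. No gene of the list passed the test and its median log2 fold change was -0.32. In Vim, Timp1, S100a6 and Lgals1, arrays 7 and 8 lay below arrays 9 and 10, as in the meningeal list, and above all wild type arrays. The part of the meninges in these levels was not tested. The same order of mutant arrays was seen in myelin and oligodendrocytes (mean 11.45, 11.71, 11.95 and 11.88 in arrays 7 to 10). It was seen also in oligodendrocyte precursors (9.71, 9.70, 9.94 and 9.92), endothelium, neutrophils and monocytes, T cells and red blood cells. The opposite order was seen in the hypothalamic list (9.26, 8.95, 8.77 and 8.78) and in astrocyte identity. The 14 microglial markers averaged 9.36, 9.74, 9.55 and 9.69 in Nestin-Pex5-/-, against 7.87, 7.73, 7.74 and 7.92 in wild type. Of these, 13 were higher, led by Ptprc (10.7-fold, adjusted p = 3.69e-07), Adgre1 (7.99-fold, 2.22e-06), C1qa (7.64-fold, 2.59e-08) and Aif1 (4.68-fold, 2.55e-06). Microglia and macrophages can express Cd44, Srgn, Stat3, Socs3 and Cebpd as well, and their part in the level of these genes was not tested. The 9 choroid plexus markers averaged 7.93, 7.60, 8.20 and 7.74 in Nestin-Pex5-/-, against 8.72, 8.35, 8.18 and 6.56 in wild type, and none was called. Wild type array 4, the lowest in that list, was the highest wild type array in 11 of the 20 reactive genes, and without it 19 of the 35 genes were higher and 1 lower. The markers of endothelium (0 of 13 called), neurons (0 of 10) and myelin and oligodendrocytes (0 of 11, median log2 fold change 0.40) gave no call. All 11 differences of myelin and oligodendrocytes were positive (lowest 0.13). The 11 markers of pericytes and smooth muscle were all below wild type in their fitted difference (median log2 fold change -0.22), and their mean was 7.31, 7.25, 7.40 and 7.31 in Nestin-Pex5-/-, against 7.56, 7.502, 7.496 and 7.76 in wild type. The 11 markers of ependyma and tanycytes were likewise all negative (median -0.36), with means of 7.46, 7.27, 7.31 and 7.22 in Nestin-Pex5-/-, against 7.71, 7.85, 7.56 and 7.504 in wild type. In both lists the means of the genotypes did not overlap, and the part of these shifts in the reactive genes was not tested. The median was -0.19 for the 15 hypothalamic genes and 0.39 for the 6 genes of oligodendrocyte precursors, all 6 positive (lowest 0.048). These 4 lists gave 1 call each: Vtn was lower among 11 genes of pericytes and smooth muscle (0.724-fold, adjusted p = 0.0299), Rarres2 among 11 of ependyma and tanycytes (0.728-fold, 0.0175) and Nkx2-1 among 15 of the hypothalamus (0.804-fold, 0.0370), and Gpr17 was higher among 6 of oligodendrocyte precursors (1.92-fold, 0.0219). Each of these 4 calls was lost without wild type array 1 or 2, and those of Vtn also without Nestin-Pex5-/- array 7 or 8, of Rarres2 and Gpr17 without 9 or 10, of Nkx2-1 without 8, 9 or 10 and of Gpr17 without wild type array 3 (adjusted p between 0.0549 and 0.117). Without probe sets of cross-hybridizing classes, Rarres2 differed by -0.077 (adjusted p = 0.609).

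**Figure D4:**
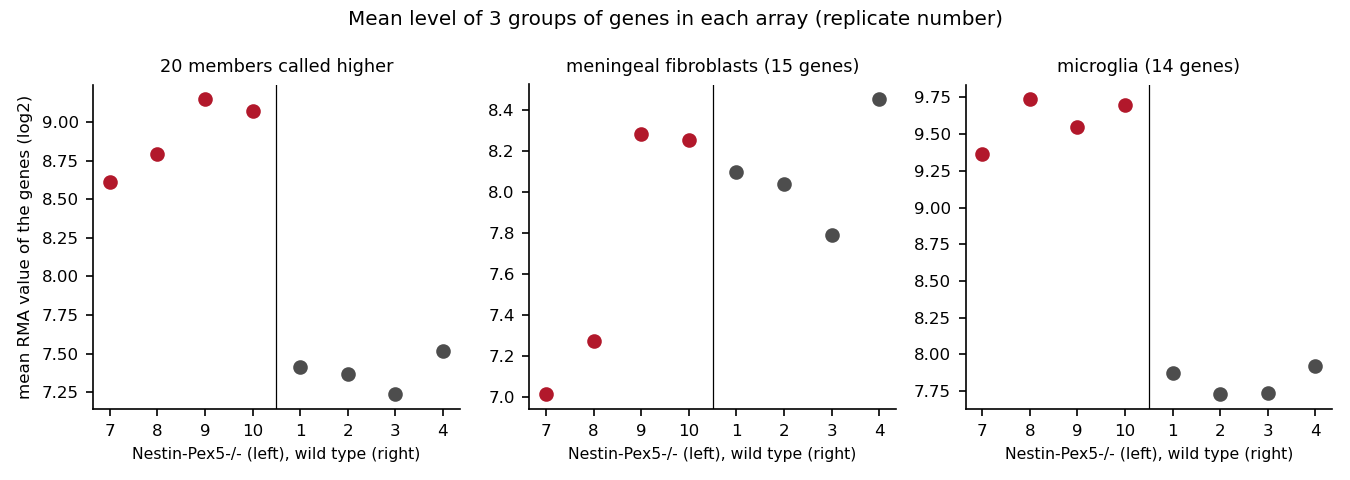
Mean RMA log2 value in each array (Nestin-Pex5-/- 7 to 10 in red left of the line, wild type 1 to 4 in grey right of it) of the 20 reactive astrocyte genes called higher, of 15 meningeal fibroblast markers and of 14 microglial markers, each panel with its own axis. Arrays 7 and 8 lie below 9 and 10 in the first and second panels. The genotypes overlap for the meningeal markers and not for the microglial markers. The 20 genes of the first panel were chosen because they were called higher, so the gap between genotypes there follows from that choice.

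The markers of astrocyte identity did not follow the reactive genes. Of 23 such genes, none of them among the 36, 2 were higher, 2 lower and 19 not called, with a median log2 fold change of -0.029. Aqp4, the water channel of astrocyte endfeet, was higher: it measured 12.09, 12.30, 12.53 and 12.67 in Nestin-Pex5-/-, against 11.17, 11.14, 11.17 and 11.69 in wild type (2.15-fold, adjusted p = 0.00222). Sox9, the glial transcription factor, gave 1.41-fold (adjusted p = 0.0181), a call lost without Nestin-Pex5-/- array 8 (0.0538) or 10 (0.0514) and with the arrays scaled to Actb (0.0511). Gpc5, a glypican, gave 0.681-fold (adjusted p = 0.00557), and Slc7a10, the astrocyte carrier of D-serine, gave 0.784-fold (adjusted p = 0.0448), a call that was lost in 7 of the 8 fits that left out 1 array (adjusted p between 0.0569 and 0.132) and with the arrays scaled to the reference genes (0.0625). The glutamate transporters Slc1a2 (12.82 in Nestin-Pex5-/- and 12.67 in wild type) and Slc1a3 (11.01 in Nestin-Pex5-/- and 11.14 in wild type) and the gap junction gene Gja1 (13.13 in Nestin-Pex5-/- and 13.03 in wild type) did not pass.

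**Figure D5:**
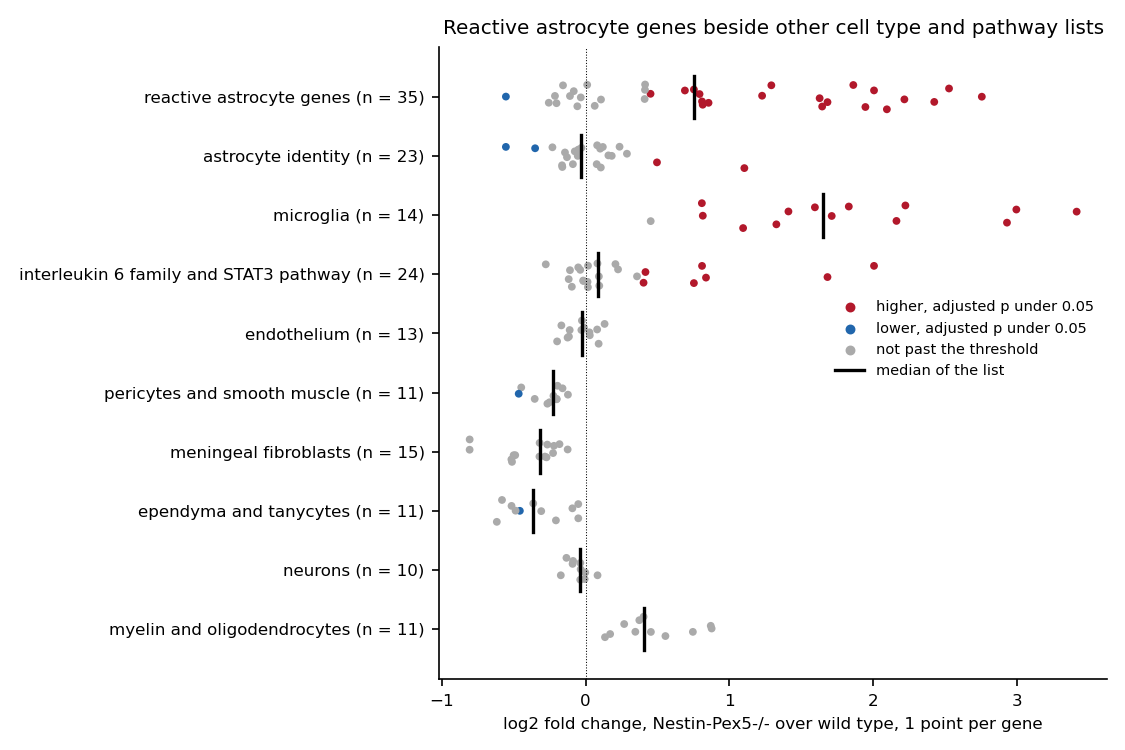
Log2 fold change (Nestin-Pex5-/- over wild type) of each gene, 1 point per gene, in the reactive astrocyte genes and 9 other lists, with the median as a black line; red and blue points passed the test as higher or lower and grey points did not. The median is 0.75 for the 35 reactive astrocyte genes, -0.029 for astrocyte identity and 1.65 for microglia.

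Reactive astrocyte genes have been divided, from injury models in mice, into a set common to several injuries and sets named A1 and A2 for the response to endotoxin and to ischaemia. Of the 13 genes of the common set 10 were higher, with a median log2 fold change of 2.01. This set holds 11 of the 36 genes, of which 9 were higher and Steap4 and Hspb1 did not pass, and of its other genes the chemokine Cxcl10 was 6.39-fold higher (adjusted p = 2.47e-05) while ceruloplasmin, Cp, at 1.58-fold, did not pass (adjusted p = 0.0969). Of the 12 A1 genes 9 were measured, and of these 5 were higher and 1 lower (median 0.86). All 12 A2 genes were measured, and 6 were higher and none lower (median 0.41). By the same rule 3.98% of all genes were higher and 0.791% lower.

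Of the 5 measured A1 genes among the 36, Srgn was higher, Fbln5 lower, and Serping1, Amigo2 and Fkbp5 did not pass. The 4 other measured A1 genes were all higher, and all are also known as interferon-induced genes: Gbp2, a guanylate-binding protein (2.89-fold, adjusted p = 2.04e-04), H2-D1, an MHC class I heavy chain whose probes may not separate it from related heavy chains (2.50-fold, 4.75e-05), Psmb8, an immunoproteasome subunit (2.38-fold, 1.97e-05), and Iigp1, an immunity-related GTPase (2.27-fold, 0.00636). Of the 9 A2 genes among the 36, Tgm1, Ptx3, Cd109, Emp1 and S100a10 were higher and Clcf1, Sphk1, Slc10a6 and Tm4sf1 did not pass, and of the 3 others Cd14, the endotoxin co-receptor that microglia also carry, was 7.67-fold higher (adjusted p = 1.40e-05). Whether the A1 and A2 sets differ was not tested.

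Another scaling of the arrays moved the counts over all genes and not those of the reactive astrocyte genes. With the arrays scaled to Actb, which was itself 0.13 higher on the log2 scale in Nestin-Pex5-/- (adjusted p = 0.272), 540 genes were higher and 1086 lower on the whole array, in place of 724 and 144, while 20 of the 35 genes were still higher and 1 lower. With the arrays scaled to 8 reference genes, 1070 genes were higher and 68 lower, and again 20 and 1 of the 35. Of the 21 called genes, 17 kept their call in each of the 16 alternative fits in which they were tested, and the others were Emp1, Fbln5, S100a10 and Lgals1.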

How the data were processed

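Total RNA of the hypothalamus of 8 mice was extracted with Trizol, amplified, labelled with biotin and hybridized to Affymetrix mouse genome arrays. The authors deposited log2 values made with RMA, as the submitters' processing notes name it; its version, how probes were assigned to sets, and filters are not given in the sources used here. The arrays' number limits the precision, and without a detection measure the share of background in a dim value is unknown. Of 45101 probe sets, 34958 were paired with 1 gene by the platform annotation and used, 932 with several and 9211 with none; symbols of 34754 were updated by gene identifier. The probe set with the highest mean represented each of 18194 genes, with no filter. Genotype was the single term of a limma model (version 3.58.1, R 4.3.3, lmFit and eBayes, two-sided), with Benjamini-Hochberg adjustment over all genes and a threshold of 0.05, and the scripts were tested on simulated data. Tables and figures were made in Python 3.11.15. The members and lists were chosen with earlier results of these data known. Members that passed, and 6 chosen members in any case, are given by array; of each other list, up to 4 called genes with the largest change are named. Alternatives left out dim probe sets (mean below 7.75) or cross-hybridizing classes of them, averaged probe sets, scaled to Actb or to reference genes, repeated quantile normalization, changed the moderation, weighted arrays or left out each array in turn. Promoters came from RefSeq (GRCm38.p6), 250 bases before to 50 after each of 32851 starts.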

Additional observations from a re-analysis of the deposited data

Results flagged for a closer look

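In 7 of the 70 sets of 4 arrays that the 35 genes give, 1 array lay far from the other arrays of its genotype (Dixon's test at the 95% level, which chance alone passes in about 1 in 20 sets), and all 7 were wild type arrays. Wild type array 3 was low in Serpina3n, at 9.07 with the others between 9.30 and 9.33, in Tm4sf1, at 9.15 with the others between 9.63 and 9.72, and in Hspb1, at 8.92 with the others between 9.40 and 9.48. The same array was high in Fkbp5, at 9.40 with the others between 8.71 and 8.78. Wild type array 2 was high in Ptx3, at 4.97 with the others between 4.80 and 4.82, and low in Thbs1, at 5.23 with the others between 5.66 and 5.74. Wild type array 4 was high in Sphk1, at 6.28 with the others between 5.89 and 5.96. Without wild type array 3 the call of Tm4sf1 changed, to lower (log2 fold change -0.38, adjusted p = 0.0132), and without the array concerned none of the calls of the other 6 genes changed.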

How the results depend on the processing

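No paired analysis was possible because the genotypes share no replicate number. In 16 alternative fits no member changed direction at a call. The count of members higher (20 of 35) ranged from 18 to 20 with each array left out and was 10 of the 19 that remained without dim probe sets, since 10 of the called members lie below that level; array weights gave 23, adding Serping1, Hspb1 and Anxa2. The count lower (1) was 0 with averaged probe sets and from 1 to 2 with each array left out, 2 without wild type array 3, which added Tm4sf1. The median log2 fold change of the members (0.75) was 0.45 without dim probe sets and from 0.65 to 0.84 with each array left out. Over all genes, 724 were higher and 144 lower; the count higher was 416 without dim probe sets, 1351 with array weights and from 543 to 1080 with each array left out. The count lower was 1086 scaled to Actb, 68 scaled to the reference genes, 699 with array weights and from 46 to 331 with each array left out: 46 to 68 without Nestin-Pex5-/- array 8, 9 or 10 or wild type array 1 or 2, and 331 without wild type array 4. The causes of these shifts, other than fewer genes tested, were not tested. No measure of signal over background was at hand, so the share of background in dim genes such as Tgm1, Ptx3, Lcn2 and Timp1 is unknown.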
